A study of Mus musculus with 12 samples.

Results

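Loss of Hopx was followed here in ventricles that already lacked Hdac2. The comparison set 3 arrays titled Hdac2-Hopx double-null against 3 titled Hdac2-null, 6 of the 12 arrays of the study, over all genes, and no wild-type array entered the difference. The tissue was mouse cardiac ventricle at embryonic day 16.5, taken from independent embryos and hybridised as biotin-labelled cRNA to single-colour Affymetrix expression arrays. Both groups are labelled as lacking Hdac2 and differ by label in Hopx; whether litters were matched is not stated. The remaining 6 arrays, 3 wild-type and 3 Hopx-null, served for the spread and for Hopx loss with Hdac2 present. How the null alleles were built, in which cells they act and the strain of the embryos are not given in the sources used here.

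Hopx encodes a small homeodomain protein that does not bind DNA by itself. In the embryonic heart it is made in cardiomyocytes, dampens transcription driven by serum response factor (SRF), and recruits Hdac2. Hdac2 is a class I histone deacetylase that works in the Sin3, NuRD and CoREST co-repressor complexes, and Hdac1 is its closest relative. Hopx and Hdac2 have been described as acting together on the cardiac transcription factor Gata4, which is why a heart lacking both was compared with hearts lacking one.

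Hopx was the gene called in this comparison, and RefSeq gives it a pair of start sites on the minus strand of chromosome 5 in GRCm38.p6. The windows below run from 250 bases before each start to 50 bases after it, at chr5:77115074-77115373 and chr5:77095218-77095517. Both are shown because Hopx is the gene deleted and the one called. Capitals mark matches, on either strand, to 4 motifs searched in every window: the CArG box bound by SRF, an ETS-type core (CAGGAA), E2F-type sites (TTTGGCGC, TTTCCCGC or TTTCGCGC) and a GATA-type site (AGATAA). The first window held a CArG box whose first base lay 83 bases before the start, and an E2F-type match 161 bases before it. The second window held none of the 4 motifs. A CArG box was found in 1.63% of all 32851 windows and an E2F-type match in 1.84%.
Hopx start 1: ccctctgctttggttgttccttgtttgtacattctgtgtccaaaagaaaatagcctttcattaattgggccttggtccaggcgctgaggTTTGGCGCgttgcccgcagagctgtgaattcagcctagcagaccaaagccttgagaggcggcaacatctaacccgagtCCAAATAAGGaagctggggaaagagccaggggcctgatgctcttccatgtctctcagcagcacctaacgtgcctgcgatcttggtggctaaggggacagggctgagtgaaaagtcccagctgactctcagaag
Hopx start 2: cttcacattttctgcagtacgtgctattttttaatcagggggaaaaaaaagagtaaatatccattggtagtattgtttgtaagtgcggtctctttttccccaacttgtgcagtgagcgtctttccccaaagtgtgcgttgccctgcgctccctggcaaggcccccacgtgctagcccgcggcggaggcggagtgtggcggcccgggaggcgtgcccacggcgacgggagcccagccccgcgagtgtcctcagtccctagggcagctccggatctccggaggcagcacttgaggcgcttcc

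Hopx itself separated the groups fully. Its signal was 12210, 12240 and 11677 on the Hdac2-null arrays and 1728, 1715 and 1656 on the double-null arrays. Hopx fell by 2.82 on the log2 scale (SE 0.11), from 12042 ± 317 to 1700 ± 38.6 (SD, n = 3 each), which is 7.08-fold lower (limma, adjusted p = 5.06e-07). A second Hopx probe set stood at 1358 ± 179 in Hdac2-null ventricles and at 9.71 ± 0.0111 in double-null ventricles (SD, n = 3 each). The first probe set therefore kept a signal about as high in the double-null as in the Hopx-null ventricles, where it was 1865, 2046 and 2066. The position of the probes relative to the deleted sequence was not analysed here.

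Hdac2 stood near 4 signal units on all 6 arrays of the comparison and between 4442 and 5683 on the 6 arrays that kept the gene. A floor of 82.9 units, 0.1 times the arrays' mean trimmed signal, was applied before log2 transformation, so Hdac2 has no difference to report here. Its relative Hdac1 was at 3804, 3840 and 3774 in Hdac2-null and at 3929, 3877 and 4242 in double-null ventricles, a log2 difference of 0.08 (SE 0.08, limma adjusted p = 0.766).

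**Figure D1:**
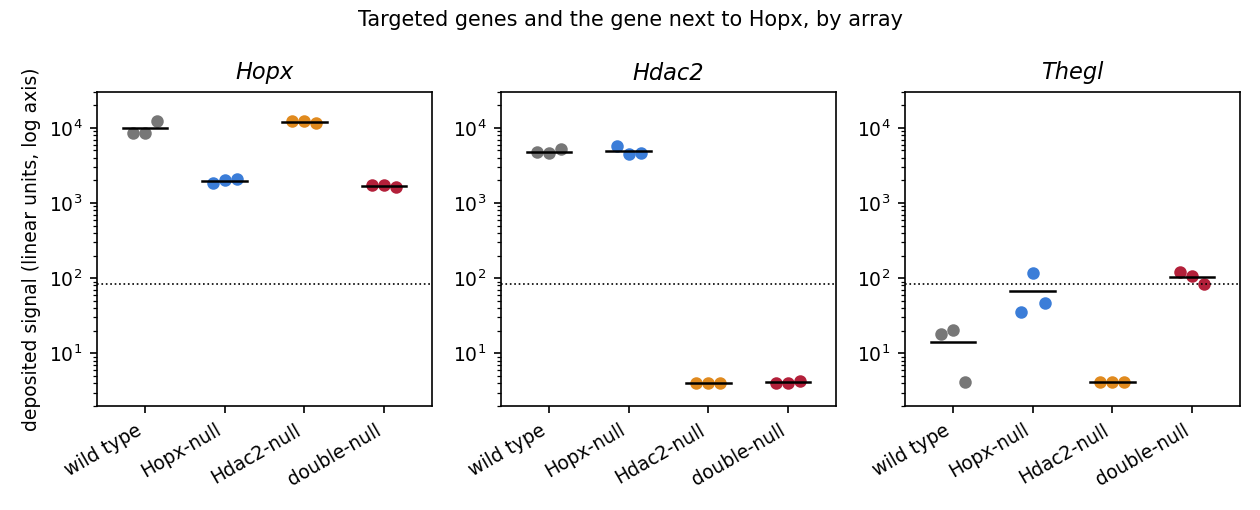
Deposited signal of Hopx, Hdac2 and Thegl on each of the 12 arrays, on a log axis; points are arrays, black bars are group means and the dotted line is the floor of 82.9 units. Hopx is near 1700 in double-null and near 12042 in Hdac2-null ventricles, Hdac2 is near 4 in both, and Thegl is at 82.7 to 120 in double-null against 4.13 to 4.14 in Hdac2-null ventricles.

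Beyond Hopx, no gene passed the threshold of an adjusted p under 0.05. Of 9662 genes tested with limma, 1 was called, 0.0103%. The smallest adjusted p after Hopx was 0.367. Of these genes, 9550 were above the floor on at least 1 of the 6 arrays, and all counts below refer to them. An unadjusted p under 0.05 was found for 1094 genes (11.5%), 621 of them higher (6.5%) and 473 lower (4.95%) in double-null ventricles. That count fell to 512 without Hdac2-null 2, to 716 without double-null 2 and to 518 without double-null 3. The 3 arrays of one group lay entirely above the 3 of the other for 1244 genes higher (13%) and 1228 lower (12.9%) in double-null ventricles. By sign alone, 4590 genes (48.1%) were higher and 4960 (51.9%) lower, with a median log2 difference of -0.007.

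Sizes were small. A difference of more than 0.5 on the log2 scale was measured for 141 genes higher and 115 lower, and one of more than 1 for 15 higher and 11 lower. The median standard error was 0.111. In simulated data over 9662 genes, the same fit called 62.7% of genes changed 1.5-fold, 89.6% of those changed 2-fold and 98.5% of those changed 4-fold. The simulated noise was independent for each gene and array, and the 200 changed genes all had means above the floor. Structure shared by the genes of an array was left out, so these shares need not hold for the real arrays. The count depended on how the arrays were weighted: with a weight estimated for each array, 953 genes were called, 558 higher and 395 lower. Those weights ran from 0.311 (wild type 1) to 7.97 (double-null 2). Every gene value below other than that of Hopx therefore stands without a call in the unweighted fit.

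**Figure D2:**
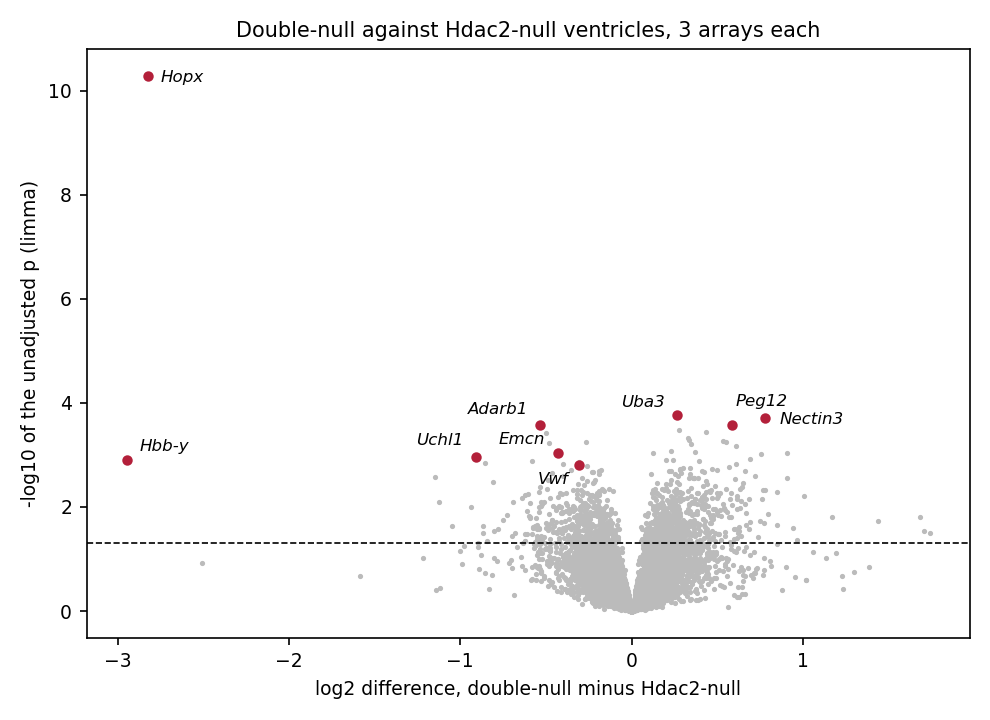
Each point is 1 of the 9550 genes above the floor on at least 1 of the 6 arrays; the x axis is the log2 difference, double-null minus Hdac2-null, and the y axis -log10 of the unadjusted p, with a dashed line at 0.05. Hopx stands alone at the top left with a log2 difference of -2.82, and Hbb-y lies at -2.95 far below it.

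Among the 15 genes with the smallest p and a higher signal in double-null ventricles, log2 differences ran from 0.12 to 0.90, each with a limma adjusted p of 0.367. Selection by small p favours groups that do not overlap, and all 15 were separated in this way. Uba3, the catalytic subunit of the NEDD8-activating enzyme, was at 4924, 4714 and 5058 in Hdac2-null and at 5692, 5930 and 6052 in double-null ventricles. The groups did not overlap, and the log2 difference was 0.27 (SE 0.05), although its other probe sets gave 0.09 and 0.00. Cip2a, an inhibitor of the phosphatase PP2A, was at 7128, 7191 and 7086 against 8186, 8546 and 9165 (log2 0.27, SE 0.05). Ppp2r3a, a regulatory subunit of the same phosphatase, differed by 0.33 (SE 0.07), and by 0.03 on a second probe set. Peg12, an imprinted gene expressed from the paternal allele, was at 138, 131 and 132 against 203, 181 and 218 (log2 0.58, SE 0.11).

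Nectin3, a cell adhesion protein, read 508, 565 and 477 in Hdac2-null and 764, 839 and 1073 in double-null ventricles, without overlap. That difference of 0.78 (SE 0.14) was seen on its brightest probe set alone, the other 3 giving 0.00, -0.08 and -0.17. Zfp141, a zinc finger gene, had the widest difference of the 15, at 141, 113 and 146 against 203, 231 and 326. Also among them were Resf1, Ccdc38, Ift122, Insig1, Lrif1, Fxr1, Trpm7 and Uqcrc2. Other probe sets ran from -0.17 to 0.06 for Fxr1 and from -0.32 to 0.17 for Trpm7. Resf1 and Lrif1 are chromatin-associated proteins, Insig1 restrains sterol-regulated transcription, Fxr1 is an RNA-binding protein of muscle, and Uqcrc2 is a core subunit of respiratory complex III.

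On the lower side, Hopx was followed by 14 genes with log2 differences from -0.26 to -2.95, again each at a limma adjusted p of 0.367. Adarb1, an enzyme that edits adenosines in RNA, was at 996, 1029 and 843 in Hdac2-null and at 659, 685 and 632 in double-null ventricles (log2 -0.53, SE 0.10). Uchl1, a ubiquitin hydrolase best known from neurons, was at 836, 1213 and 947 against 580, 555 and 452 (log2 -0.91, SE 0.21). Mgst1, a microsomal glutathione transferase, was at 2766, 2928 and 3340 against 1416, 1464 and 2203 (log2 -0.86, SE 0.20). In each of these the 3 double-null arrays were below all 3 Hdac2-null arrays. The same separation was found for all 29 leading genes of both directions, which were chosen by p. Over all genes, 12.9% were lower without overlap. The endothelial genes Emcn and Vwf were among the 14, as were Use1, Dmac1, Ctsd, Fis1, Phpt1, Kdm7a, Thg1l and 2410006H16Rik. Ctsd is a lysosomal protease, Fis1 acts in mitochondrial fission and Kdm7a removes methyl groups from histone H3. A second Fis1 probe set gave 0.10.

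Endothelial markers held more low values than the whole set of genes. Of 32 measured markers, 7 had an unadjusted p under 0.05 and all 7 were lower in double-null ventricles, where 4.95% of all genes were lower at that p. By sign, 20 were lower and 12 higher, and the median log2 difference was -0.07. With array weights 7 of the 32 (21.9%) were called, all lower, against 9.86% of all genes, 558 higher and 395 lower. Hopx is a cardiomyocyte protein in this tissue, and in bulk ventricle fewer cells of a type and less RNA per cell cannot be told apart.

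Emcn encodes endomucin, a sialomucin of the vessel wall. Its signal was 1754, 1856 and 1642 in Hdac2-null and 1322, 1392 and 1187 in double-null ventricles, 1751 ± 107 against 1300 ± 104 (SD, n = 3 each). The groups did not overlap, and the log2 difference was -0.43 (SE 0.10, limma adjusted p = 0.367). Vwf, the clotting factor stored in endothelial cells, was at 1434, 1557 and 1540 against 1279, 1231 and 1156 (log2 -0.31, SE 0.07). Icam2, an adhesion molecule of endothelium, was at 1561, 1650 and 1567 against 1294, 1271 and 1112 (log2 -0.38, SE 0.12). Mmrn2, an endothelial matrix protein, and Ramp2, part of the adrenomedullin receptor, differed by -0.23 and -0.19.

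The promoter of Emcn is shown as the leading endothelial member, at chr3:137340828-137341127 on the plus strand of GRCm38.p6. It carried 2 ETS-type matches, which begin 173 and 67 bases before the start.
Emcn: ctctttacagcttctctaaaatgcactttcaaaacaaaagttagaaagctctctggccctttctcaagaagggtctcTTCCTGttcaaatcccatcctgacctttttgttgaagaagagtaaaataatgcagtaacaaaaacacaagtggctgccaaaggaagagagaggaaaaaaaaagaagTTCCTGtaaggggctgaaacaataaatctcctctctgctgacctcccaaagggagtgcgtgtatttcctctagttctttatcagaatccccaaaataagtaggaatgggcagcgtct
Windows were listed for 13 of the 32 markers, and 10 of their 17 windows (58.8%) held the core, against 25% of the 9990 windows of measured genes.

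The list of vascular growth signalling shares members with the endothelial list. Flt1, a receptor for VEGF, was at 2596, 3051 and 2379 in Hdac2-null and at 2101, 2045 and 2035 in double-null ventricles (log2 -0.37, SE 0.15, limma adjusted p = 0.409). A second Flt1 probe set gave -0.01, and the dimmest gave 0.00. Kdr, the main signalling receptor for VEGF, read 1678, 1662 and 1672 against 1498, 1468 and 1318, also without overlap (log2 -0.23, SE 0.15, limma adjusted p = 0.592). Tie1 was at 378, 307 and 400 against 279, 297 and 300, and the ligand Angpt1 at 805, 997 and 651 against 539, 620 and 676, where the groups overlapped. Of the 12 measured genes of VEGF and angiopoietin signalling, these 3 with an unadjusted p under 0.05 (Flt1, Tie1 and Angpt1) were lower and none was higher. The share of all genes lower at that p was 4.95%. Flt1 and Tie1 are also among the 7 endothelial markers counted above, so the 2 counts are not separate observations. Vegfa itself differed by 0.09 and the receptor Tek by -0.06. Pecam1, a defining marker of all endothelium, was at 295, 341 and 322 against 308, 254 and 231, with overlapping groups.

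In the Notch pathway the receptor Notch1 and its targets Hey1 and Nrarp were lower in double-null ventricles at an unadjusted p under 0.05, 3 of 12 measured genes. At that p 4.95% of all genes were lower. Nrarp was at 4323, 4466 and 4552 against 4002, 3853 and 3775 (log2 -0.20, SE 0.06), and Notch1 at 4232, 4589 and 3860 against 3784, 3693 and 3145 (log2 -0.26, SE 0.10). Hey1 was at 1663, 1559 and 1696 in Hdac2-null ventricles. In double-null ventricles it was at 1076 and 1022 on arrays 2 and 3 but at 1666 on array 1, inside the range of the other group. The related Hey2 and Heyl had differences of 0.14 and 0.29, and a second Notch1 probe set gave -0.02. The median of the 12 genes was 0.02, against -0.007 over all genes.

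**Figure D3:**
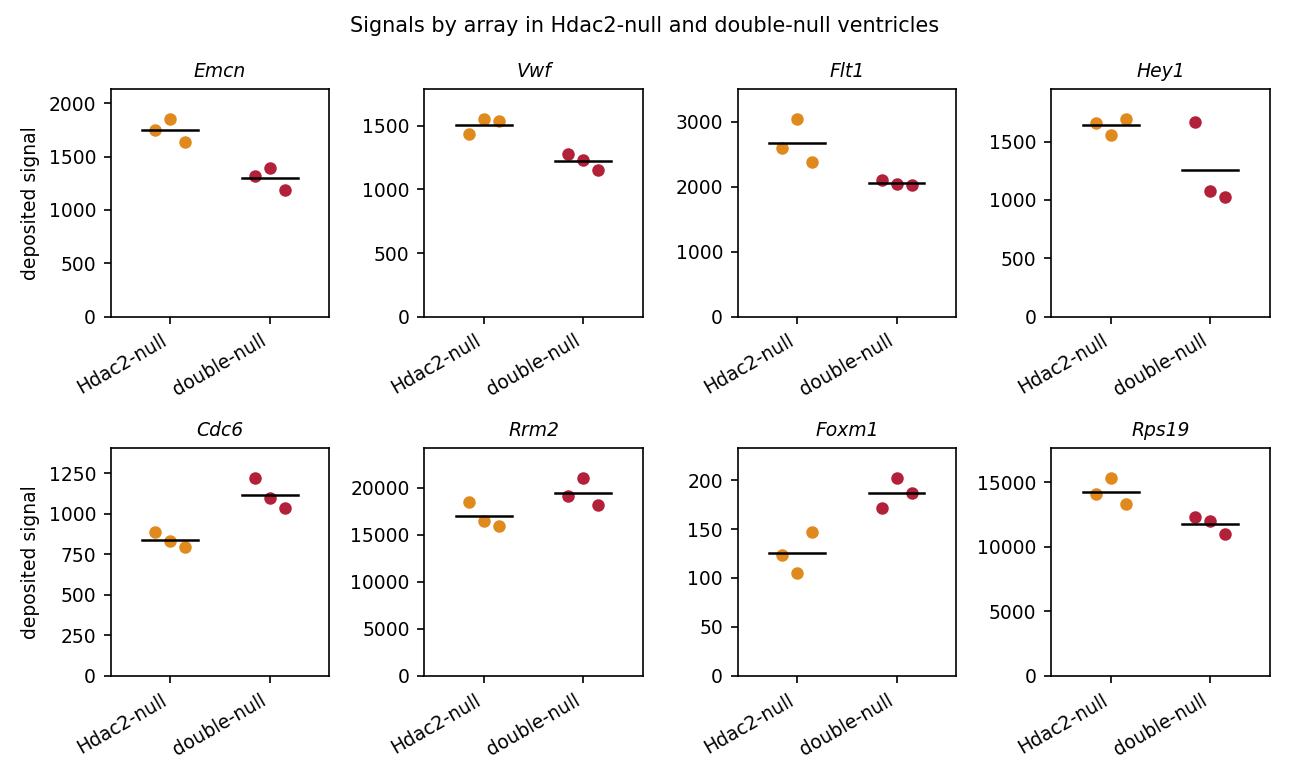
Deposited signal (linear axis from 0) of 8 genes on the 3 Hdac2-null and 3 double-null arrays; points are arrays and bars are means. Emcn, Vwf, Flt1 and Rps19 are lower on all 3 double-null arrays, Cdc6 and Foxm1 higher on all 3, and the groups overlap for Hey1 (1 double-null array at 1666) and Rrm2.

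By their medians, cell cycle genes lay close to the whole set of genes. Of 41 measured genes of the G1/S transition and DNA replication, 4 had an unadjusted p under 0.05 and all 4 were higher in double-null ventricles, with 25 of the 41 higher by sign. Of 36 genes of G2/M and mitosis the same held for 5, with 21 higher by sign. Over all genes, 6.5% were higher and 4.95% lower at that p, and no gene of either list was lower at it. With array weights 3 G1/S genes (7.32%) and 6 G2/M genes (16.7%) were called, all higher. Of all 9662 genes tested, that fit called 558 higher and 395 lower (9.86% together). The medians of the lists were 0.02 and 0.03, and each changed sign when some single arrays were left out: the first without double-null 1 (-0.02), the second without Hdac2-null 1 (-0.02).

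Ccne2, a cyclin of the G1/S transition, was at 1298, 1101 and 1018 in Hdac2-null and at 1425, 1590 and 1528 in double-null ventricles (log2 0.42, SE 0.13, limma adjusted p = 0.367). Cdc6, which licenses replication origins, was at 888, 835 and 794 against 1222, 1097 and 1036 (log2 0.41, SE 0.13). Mcm5, a subunit of the replicative helicase, was at 6236, 5697 and 5322 against 6995, 6913 and 7257 (log2 0.30, SE 0.12). All 3 genes were separated without overlap. Rrm2, a subunit of ribonucleotide reductase, was at 18518, 16416 and 15966 against 19134, 21042 and 18131, with 1 double-null array inside the Hdac2-null range.

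The promoter of Cdc6 is shown because E2F-type sites are a textbook feature of replication genes. Its window at chr11:98907901-98908200, plus strand of GRCm38.p6, held an E2F-type match that begins 138 bases before the start. Such matches were present in 14 of 43 windows of 34 G1/S genes (32.6%), in 1 of 31 windows of 29 G2/M genes, and in 3.57% of the windows of measured genes.
Cdc6: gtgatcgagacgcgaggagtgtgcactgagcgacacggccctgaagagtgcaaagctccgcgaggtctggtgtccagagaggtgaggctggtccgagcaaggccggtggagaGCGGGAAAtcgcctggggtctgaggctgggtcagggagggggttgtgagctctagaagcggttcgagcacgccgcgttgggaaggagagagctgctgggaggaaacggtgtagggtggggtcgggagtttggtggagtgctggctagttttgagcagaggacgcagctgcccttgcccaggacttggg

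Foxm1, the transcription factor of mitotic genes, had the widest difference of the mitotic list, at 124, 106 and 147 against 171, 202 and 187 (log2 0.58, SE 0.18). These levels were little above the floor, and a second Foxm1 probe set gave 0.06. Ect2, needed for cytokinesis, was at 5004, 5410 and 4699 against 5748, 6199 and 5900 (log2 0.24, SE 0.10). Mad2l1, a spindle checkpoint protein, was at 2482, 2790 and 2663 against 3074, 2896 and 2926 (log2 0.17, SE 0.07). Incenp and Hmmr differed by 0.10 and 0.15. The cyclin-dependent kinase inhibitor Cdkn1c was at 2671, 3673 and 2154 against 2380, 1879 and 1636, with overlap, and the anti-proliferative gene Btg2 differed by -0.62 (SE 0.28). Ccng1, an atypical cyclin induced by p53, was at 15081, 13502 and 15039 against 16137, 16876 and 17012, without overlap (log2 0.20, SE 0.05). Its other probe sets gave -0.01 and 0.07. Of the 15 measured cell cycle inhibitors and pocket proteins, 8 were higher and 7 lower, with a median of 0.03. Asf1b, a histone chaperone of replicating cells, differed by 0.13 (SE 0.06).

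Of the cell cycle genes tied to Gata4, Ccnd2, a cyclin of G1, was at 10713, 10854 and 9951 against 10358, 10048 and 10028 (log2 -0.05, SE 0.08). Other Ccnd2 probe sets ran from -0.39 to -0.01, and all 6 of them were below 0. Its partner kinase Cdk4 was at 7157, 7601 and 6947 against 6761, 6644 and 5910 (log2 -0.17, SE 0.10, limma adjusted p = 0.556). Of 12 measured p53 targets and apoptosis genes, 3 were higher at an unadjusted p under 0.05 and none lower. These were Sesn1, Eda2r and Trp53inp1, where 6.5% of all genes were higher at that p. Sesn1, a stress-induced regulator of growth, was at 4500, 3299 and 3596 against 4398, 5325 and 6396 (log2 0.50, SE 0.14), with overlapping groups and 0.01 and 0.11 on its other probe sets.

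Genes of the cardiomyocyte itself differed little. Gata4 was at 5533, 5929 and 5887 in Hdac2-null and at 5933, 5672 and 5464 in double-null ventricles (log2 -0.02, SE 0.08). Its 95% interval ran from -0.20 to 0.15. The myosin heavy chains Myh6 and Myh7 differed by 0.09 (SE 0.05) and -0.02 (SE 0.03). Nppa, the atrial natriuretic peptide gene, was at 20061, 20572 and 21454 against 15436, 23037 and 25251, so the double-null arrays lay on both sides of the Hdac2-null range. Nppb was at 7556, 7549 and 6473 against 7449, 7236 and 5035 (log2 -0.15, SE 0.17). Of 14 natriuretic peptide and GATA4-dependent genes, only the angiotensin receptor gene Agtr1a had an unadjusted p under 0.05, at 3250, 2519 and 2655 against 3547, 3334 and 3726 (log2 0.34, SE 0.15).

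Of 29 measured sarcomere genes, 4 had an unadjusted p under 0.05, 2 in each direction, and the median was -0.02. Such a p was found for 11.5% of all genes. Tpm1, a tropomyosin, and Tnni1, the fetal troponin I, differed by -0.14 (SE 0.04) and -0.12 (SE 0.04). Nexn and Cryab, proteins of the Z-disc, differed by 0.10 (SE 0.04) and 0.11 (SE 0.05), and a second Cryab probe set gave -0.09. In calcium handling, the kinase Camk2d was at 7401, 6712 and 7233 against 7885, 8491 and 8702 (log2 0.23, SE 0.06), and Jph2, which ties the T-tubule to the sarcoplasmic reticulum, differed by -0.17 (SE 0.07). Other Camk2d probe sets ran from -0.53 to 0.25. Of 28 cardiac transcription factors, Hey1 alone had an unadjusted p under 0.05.

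Skeletal muscle isoforms diverged among themselves. Casq1, the skeletal calsequestrin that stores calcium, was at 2125, 2044 and 3173 in Hdac2-null and at 3656, 4215 and 4282 in double-null ventricles (log2 0.75, SE 0.17, limma adjusted p = 0.367). The groups did not overlap. Tnni2, the fast skeletal troponin I, was at 439, 665 and 926 against 364, 551 and 550 (log2 -0.43, SE 0.27), and both groups were above the wild-type arrays, which stood at 27.7, 45.0 and 84.6. Acta1, skeletal actin, was at 342, 978 and 1786 against 804, 515 and 907, so the groups overlapped widely. Its log2 difference of -0.22 (SE 0.58) turned to 0.32 without Hdac2-null 3, to 0.02 without double-null 2 and to 0.05 with array weights. Of 15 smooth muscle and SRF target genes, none had an unadjusted p under 0.05, 10 were lower and the median was -0.03. A CArG box was found in 4 of 13 windows of 12 of these genes (30.8%), against 1.5% of the windows of measured genes.

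Ribosomal protein genes were lower in double-null ventricles by small amounts. All 13 measured members of the list had a log2 difference below 0 (median -0.15), and 7 had an unadjusted p under 0.05, where 4.95% of all genes and 8.5% of the shortest genes (below) were lower at that p. These were Rps19, Rpl11, Rps9, Rps3, Rpl19, Rplp0 and Rpl8. Rps19 was at 14115, 15348 and 13366 against 12346, 12013 and 10966 (log2 -0.28, SE 0.08), and Rpl11 at 17434, 18635 and 17198 against 16233, 15804 and 14528 (log2 -0.19, SE 0.06). Neither gene overlapped between groups. Of all 42 ribosomal protein genes found by symbol, a set chosen after the values of the list were seen, 37 were lower and 17 of these had an unadjusted p under 0.05. The list median was -0.03 when each gene's probe sets were averaged. Second probe sets of Rps9 and Rps3 gave 1.72 (SE 1.65) and 0.28 (SE 0.31), so these 2 genes have no settled direction.

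The difference also varied with gene length, though not alike on every array. Among 9530 genes with a span in the GRCm38.p6 gene table, the shortest 1907 had a median log2 difference of -0.06, with 162 genes lower and 79 higher at an unadjusted p under 0.05. In the other 4 groups of equal size, 66 to 93 genes were lower and 119 to 153 higher. All 13 ribosomal protein genes lie in the shortest group. Spearman's rho of the difference with span was 0.13 over genes, which are not independent, and it was -0.12 for Hopx-null against wild type. For single arrays, taken against each gene's mean over all arrays, rho was 0.05, 0.13 and 0.16 on double-null 1 to 3. It was 0.05, -0.07 and -0.03 on Hdac2-null 1 to 3, and ran from -0.14 to 0.06 among the Hopx-null arrays. The 3' to 5' ratio of the Gapdh control probe sets, a sign of RNA integrity, was also higher on every double-null array, with a mean log2 of 1.03 against 0.90 (exact two-sided permutation test, p = 0.1, the smallest that 3 against 3 allows). The same ratio for actin overlapped (p = 1, same exact test). The share of probe sets above the floor was lower on every double-null array, with a mean of 37.71% against 37.85% (exact two-sided permutation test, p = 0.1). The part of span and RNA integrity in the ribosomal result was not tested.

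Energy metabolism showed opposite members within a pathway. Of 35 oxidative phosphorylation genes, 4 had an unadjusted p under 0.05 and were higher, where 6.5% of all genes were higher at that p. They were Uqcrc2, Atp5o, Atp5a1 and Sdhd, with log2 differences from 0.05 to 0.12. Uqcrc2 was at 32007, 31140 and 32333 against 33931, 34716 and 35394. Their other probe sets lay between -0.07 and 0.04. Of 27 genes of fatty acid uptake and oxidation, 20 were lower and the median was -0.07. Etfb, which passes electrons from acyl-CoA dehydrogenases, was at 8155, 8784 and 8478 against 6416, 7122 and 5542 (log2 -0.42, SE 0.14). The partner subunits of the mitochondrial trifunctional protein were split: Hadha was at 2994, 3139 and 2926 against 2601, 2581 and 2072, while Hadhb was at 17648, 15545 and 17482 against 19234, 22644 and 23535. Other Hadhb probe sets gave -0.07 and -0.46, so the direction of Hadhb is not settled. Fabp3, the fatty acid carrier of heart muscle, differed by -0.08 (SE 0.03). Of 32 genes of glycolysis and the hypoxia response, 23 were lower (median -0.06) and none had an unadjusted p under 0.05.

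Histone deacetylases and co-repressor subunits, taken as 1 list, were mostly lower by sign, 11 of 16, with a median of -0.10. Of all genes, 51.9% were lower by sign. Kdm1a, the histone demethylase of CoREST, was at 3988, 4644 and 4066 against 3756, 3622 and 3132 (log2 -0.27, SE 0.09), and -0.40 on a second probe set. Sin3b, a scaffold of the Sin3 complex, was at 4891, 5569 and 5078 against 4471, 4638 and 4377 (log2 -0.20, SE 0.07), and its other 3 probe sets gave -0.10 to -0.47. Sap30, a further Sin3 subunit, differed by -0.25 (SE 0.09). Rbbp7, a histone-binding subunit of Sin3 and NuRD, was at 16703, 16152 and 16762 against 17644, 18635 and 18392 (log2 0.14, SE 0.04), and 0.002 on a second probe set. These 4 of the 16 had an unadjusted p under 0.05, as did 11.5% of all genes. Of 11 histone acetyltransferases, none did.

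**Figure D4:**
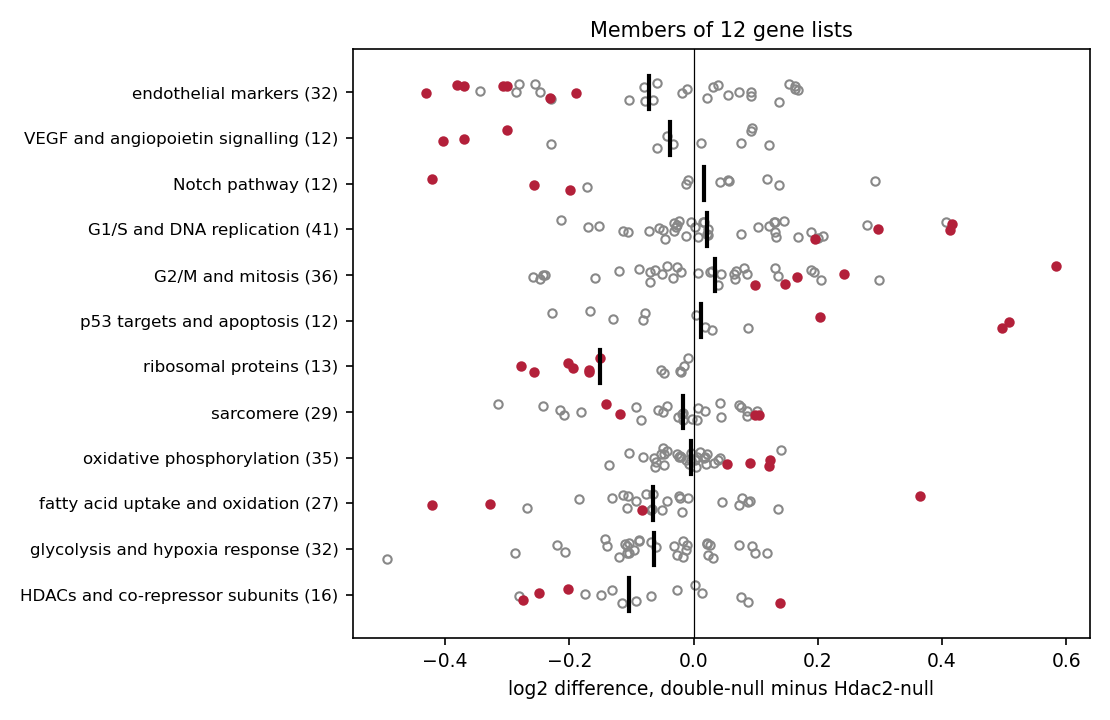
Log2 difference, double-null minus Hdac2-null, for each measured member of 12 gene lists (number of members in brackets); filled red points have an unadjusted p under 0.05, open points do not, and the black bar is the list's median. All 13 ribosomal protein genes lie below 0, the 7 filled endothelial markers lie below 0 and the 9 filled cell cycle genes lie above 0.

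Signalling pathways of heart development held 1 to 3 genes each with an unadjusted p under 0.05, where 11.5% of all genes had such a p. In the Wnt pathway the secreted inhibitor Frzb was at 210, 184 and 240 against 290, 256 and 327 (log2 0.46, SE 0.13), while the ligand Wnt5b was at 569, 410 and 651 against 309, 382 and 402 (log2 -0.56, SE 0.20). The receptor Fzd1 differed by -0.44 (SE 0.18), and 14 of 20 Wnt genes were lower (median -0.09). In the BMP and TGF-beta pathway, Id3, a target of BMP signalling, was at 1210, 1517 and 1250 against 1128, 1024 and 798, and the co-receptor Tgfbr3 at 5919, 5986 and 5717 against 5067, 5160 and 4947. Tgfbr3 differed by -0.22 (SE 0.06), and by -0.49 on a second probe set. Smad5, which carries BMP signals to the nucleus, was at 504, 415 and 510 against 620, 570 and 528 (log2 0.27, SE 0.12), and its sign turned when its probe sets were averaged (-0.10). These 3 were the genes of the 27 in that pathway with an unadjusted p under 0.05. Of 22 insulin and IGF genes 1 had such a p. Igf1r, the receptor for insulin-like growth factors, was at 3515, 3961 and 3553 against 2990, 2991 and 3020 (log2 -0.29, SE 0.08). In the Hippo pathway (13 measured genes) the kinase Lats2 and its partner Sav1 differed by 0.25 and 0.21. Second probe sets of Lats2 and Sav1 gave -0.15 and -0.12, so these 2 genes have no settled direction. The effector Yap1, which Lats kinases restrain, differed by -0.16 (SE 0.07).

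Markers of other cell types were checked next. Of 19 erythroid genes 5 were measured, and Hbb-y, an embryonic globin, was at 1209, 985 and 219 in Hdac2-null and at 47.4, 16.2 and 64.7 in double-null ventricles. Its log2 difference was -2.95 after the floor (SE 0.68, limma adjusted p = 0.367). The summed signal of the 5 erythroid genes overlapped between the groups, from 10626 to 16050 in Hdac2-null and from 10879 to 15330 in double-null ventricles. Their mean log2 signal did not overlap, at 8.97 to 9.55 against 8.25 to 8.61. Hbb-y weighs heavily in that mean, and of the 6 arrays it was above the floor on the 3 Hdac2-null arrays only. Its wild-type arrays read 7.66, 4.84 and 123. Of the 5 genes 4 were lower and 1 higher, with a median log2 difference of -0.12. Alas2, the heme synthesis enzyme of erythroid cells, was at 303, 154 and 236 against 157, 139 and 78.5. Of the 6 arrays, liver markers were above the floor only on Hdac2-null 2 and 3. On Hdac2-null 3 Alb read 176 and Afp 205, and Ttr was at 110 and 188 on Hdac2-null 2 and 3. The summed signal of the 3 measured liver genes was 52.4 to 569 in Hdac2-null and 26.2 to 56.8 in double-null ventricles. Their part in any difference was not tested.

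Among stromal markers, 17 of 27 fibroblast and matrix genes were higher (median 0.04), with the microfibril gene Mfap5 at 659, 206 and 668 against 825, 776 and 1048. Of 9 measured epicardial and mesothelial markers, 6 were lower and 3 higher. Upk3b was the 1 marker of these with an unadjusted p under 0.05, which 11.5% of all genes had. It was at 1609, 1625 and 1628 against 1181, 1510 and 1117 (log2 -0.37, SE 0.14). Of 16 immediate early and heat shock genes, Hspa1b differed by 0.55 (SE 0.23) and Fosl2 by -0.26 (SE 0.10), both without overlap. None of the 11 measured leukocyte genes and none of the 8 pericyte genes had an unadjusted p under 0.05. No lung, thymus, fat or neural marker was above the floor on any of the 6 arrays. The summed signal of the 32 endothelial markers overlapped between the groups, from 104127 to 109829 in Hdac2-null and from 104150 to 107946 in double-null ventricles. Their mean log2 signal, which weights dim and bright genes alike, did not overlap, at 10.65 to 10.67 against 10.53 to 10.60.

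The gene next to Hopx on chromosome 5, Thegl, had a low signal. It was named after its values were seen. Thegl read 4.14, 4.13 and 4.14 on the Hdac2-null arrays, far below the floor, and 120, 107 and 82.7 on the double-null arrays. It was above the floor of 82.9 on 2 of the 6 arrays only, and with the floor its log2 difference was 0.30 (SE 0.15, limma adjusted p = 0.483). Since the Hdac2-null values are at background, no size is given without the floor, and the call that Thegl received without a floor rests on those values. The Hopx-null arrays read 36.03, 118 and 47.1 and the wild-type arrays 18.04, 20.2 and 4.14, most of them below the floor, so no difference is drawn from them. Among the 24 measured genes nearest Hopx, 12 on each side, 5 had an unadjusted p under 0.05 (20.8%, against 11.5% of all genes): Ppat, Paics, Tecrl, Cenpc1 and Ythdc1. Ppat differed by -0.17 and Paics by 0.18, but other probe sets gave 0.11 for Ppat and 0.15 and -0.13 for Paics. In Hopx-null against wild type 1 of the 24 had such a p, Tecrl, against 2.59% of all genes. Tecrl, a reductase-like protein of cardiac muscle, was at 2135, 1738 and 2072 against 2519, 2508 and 2530.

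Whether Hopx loss acts the same with and without Hdac2 was asked with the 6 arrays that the main difference does not use. Hopx-null against wild type also gave 1 called gene of 9662 (0.0103%), Hopx itself, and 250 genes at an unadjusted p under 0.05 (2.59%). Across 9549 genes other than Hopx, the 2 differences correlated at Pearson's r of 0.21 and Spearman's rho of 0.17, as a description over genes that are not independent. By sign, 48.9% of these 9549 genes were higher in Hopx-null than in wild-type ventricles. Of the 621 genes higher in double-null ventricles at an unadjusted p under 0.05, 452 were also higher in Hopx-null than in wild-type ventricles, and of 472 lower genes 279 were also lower. Their medians in Hopx-null against wild type were 0.04 and -0.02, against 0.26 and -0.26 in the comparison that selected them.

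At an unadjusted p under 0.05 in both backgrounds stood 39 genes in the same direction, 20 higher and 19 lower, and 7 in opposite directions. The 39 were 3.57% of the genes from the double-null comparison and 15.7% of those from the Hopx-null comparison. For all genes, both directions together, 2.59% had such a p in Hopx-null against wild type and 11.5% in the double-null comparison. Both p-values of a gene use 1 spread estimated from all 12 arrays. A gene with a low spread is thus favoured in both, and the overlap is not an independent replication. Parp3, a poly(ADP-ribose) polymerase acting in DNA repair, was at 286, 283 and 256 against 453, 404 and 409 (log2 0.62, SE 0.20), and differed by 0.67 (SE 0.20) with Hdac2 present. Ddn, which encodes dendrin, was at 742, 924 and 463 against 439, 208 and 317 (log2 -1.15, SE 0.30), and by -0.92 (SE 0.30) with Hdac2 present. Upk3b, the mesothelial gene, had -0.37 and -0.48 in the 2 backgrounds. Tgfbr3 had -0.22 and -0.17, the nonmuscle myosin light chain Myl6 -0.20 and -0.20, Gas2 0.46 and 0.39, Tecrl 0.35 and 0.29, and Uba3 0.27 and 0.15.

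**Figure D5:**
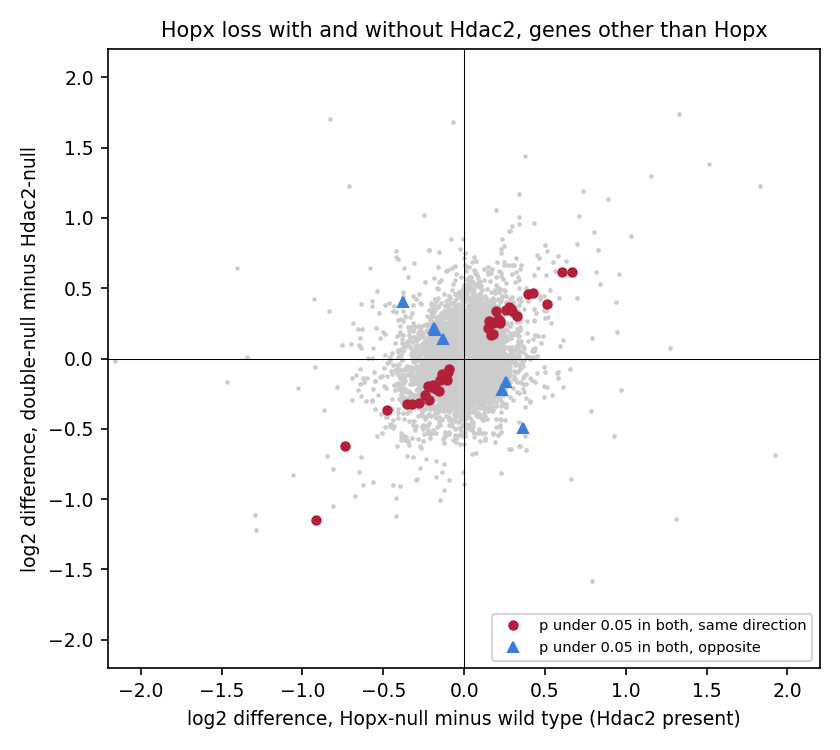
Log2 difference for Hopx loss with Hdac2 present (x axis, Hopx-null minus wild type) and without it (y axis, double-null minus Hdac2-null) for 9549 genes other than Hopx, of which 3 fall outside the axes. Red circles mark the 39 genes with an unadjusted p under 0.05 in both and the same direction, and blue triangles the 7 in opposite directions.

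The interaction, which tests the difference between the 2 Hopx effects, gave 0 of 9662 genes called by limma (0%) and 396 at an unadjusted p under 0.05 (4.1%). Without wild type 3 it called 1 gene, Hopx, whose wild-type signal was 8653, 8577 and 12221. The Hopx interaction was -0.54 (SE 0.16, limma adjusted p = 0.943). Emcn had an interaction of -0.57 (SE 0.14), Vwf of -0.31 (SE 0.10) and Rps19 of -0.35 (SE 0.11), each with a limma adjusted p of 0.943. These genes were named for a small p in the double-null comparison, which is part of the interaction, so that choice favours large values. Of the 29 leading genes, 24 had an interaction at an unadjusted p under 0.05. In Hopx-null against wild type, Emcn differed by 0.14, and the endothelial list had a median of -0.01. None of these differences between backgrounds passed the threshold.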

How the data were processed

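Ventricular RNA of 12 embryos was measured, 3 arrays per genotype. The authors deposited linear intensities for 45101 probe sets per array. The submitters' processing notes name MAS5, without a version. Because 48.6% of values lay within 1 unit of 4.5, the summary behind the deposited intensities is not certain, and no further normalisation was applied. Low signals were raised to a floor of 82.9 before log2 transformation, which understates differences of dim genes. Of 34945 probe sets annotated to 1 gene, 34741 were matched to GRCm38.p6 symbols, and the brightest probe set on average stood for its gene. Genes above the floor on at least 1 of 12 arrays were tested (9662).

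Models with 1 coefficient per genotype over 12 arrays were fitted in limma 3.58.1 (R 4.3.3) with an intensity trend, 8 residual degrees of freedom and Benjamini-Hochberg adjustment. The fit was tested on simulated data. No set test was run, and lists are given as counts and medians. The members and the 41 lists were chosen with earlier results of these data known. Named were the targeted and a few cardiac genes, the 15 genes per direction with the smallest p, and, of each list, members with an unadjusted p under 0.05 or among the 6 smallest; other genes are named for contrast. Not every gene that this rule admits is named, and one is not reported here. The number of arrays limits the precision, and replicates are labelled biological. Promoter windows are from RefSeq GRCm38.p6, which listed 102 of 129 genes considered for the text. The alternatives, 28 in all, varied the floor, filter, probe set rule, normalisation, fit, array weights, replicate block and arrays.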

Additional observations from a re-analysis of the deposited data

How the results depend on the processing

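Hopx kept its direction and its call under all 28 alternatives (log2 -3.42 to -2.81), and it was the 1 gene called in 26 of them. Without a floor 2 genes were called, Hopx and Thegl, and with array weights 953 were. The 1094 genes at an unadjusted p under 0.05 became 1725 with the 6 arrays alone, 2747 with array weights and 6282 with neither floor nor filter, where 91.5% were higher. Leaving out 1 array at a time gave 512 (without Hdac2-null 2) to 1222, with 518 without double-null 3 and 716 without double-null 2. Higher genes made up 56.8% of the 1094, and 44.5% when the probe sets of a gene were averaged. The interaction called 0 to 1 genes over the same omissions.

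Whether the replicate numbers pair the arrays is not stated, and the main fit did not use them. Same-numbered double-null and Hdac2-null arrays deviated together at r = 0.251, 0.097 and 0.258, and each correlated best with its own number. Arrays of these groups with different numbers had r from -0.236 to 0.001. Same-numbered Hopx-null and wild-type arrays had r = 0.421, 0.417 and 0.154. With the replicate number as a block 1 gene was called, and 1296 had an unadjusted p under 0.05. Averaging probe sets reversed Rps9 (0.49), Rps3 (0.045), Hadhb (-0.054) and Smad5 (-0.10), and array weights reversed Acta1 (0.055) and Gata4 (0.0075). When single arrays were left out, Acta1 ran from -0.87 to 0.32, Nppa from -0.13 to 0.22, Inpp5f from -0.051 to 0.24, Nppb from -0.25 to 0.033, Gata4 from -0.055 to 0.0051 and Myh7 from -0.039 to 0.0048; the cause was not tested. The endothelial median stayed below 0 in 28 of 28 alternatives (-0.12 to -0.05), as did the ribosomal one (-0.19 to -0.03). Among the genes considered for the text, 92 results over these alternatives passed the threshold where the unweighted fit had none, nearly all with array weights.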
